A study of Rattus norvegicus with 20 samples.

Results

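The expression of 10 heat shock protein genes was followed in heart cell cultures of newborn rats after exposure to diclofenac, a cyclooxygenase inhibitor of the non-steroidal anti-inflammatory class. The genes were Hspa1a, Hspa1l, Hspa8, Hsph1, Hsp90aa1, Hspb1, Hspb7, Hspd1, Dnajb1 and Dnaja1. A probe of the array counted as theirs when its gene name was one of these symbols, or the older symbol Hspca for Hsp90aa1, with or without the ending "mapped" or "predicted" that the files add to some names, and its description named the same protein. All 10 genes were found, with 22 probes, among the 30503 genes of the series that passed a filter on dim signal. The filter kept a probe if some group had all its arrays marked by the scanner software as well above background for it, and all 22 probes passed. Hspa1l, Hsph1, Hspb1 and Dnaja1 had 1 probe each, and the other 6 genes had 2 or 4.

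The series held 20 one-colour Agilent arrays in 7 groups. Untreated cultures had 2 arrays. Cultures given diclofenac at a reference concentration of 1, 1/5 or 1/25 for 6 h or 24 h had 3 arrays for each concentration and time. All cultures came from neonatal heart tissue and had grown for 1 day on DMEM medium before treatment, and the labels call the cells cardiomyocytes. The labels give neither a molar value for the reference concentration nor a time for the untreated cultures. In each comparison with the untreated arrays the drug and the time in culture therefore cannot be told apart. Comparisons of 24 h with 6 h hold only treated arrays, so there the length of exposure and the time in culture cannot be told apart either. The series text speaks of 3 replicates per group, and 2 untreated arrays were used here. Nothing says that the replicates were separate cultures or animals, so every p-value measures the spread between these arrays, which may be technical. All 6 comparisons with the untreated group share its 2 arrays.

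Heat shock proteins are chaperones that bind unfolded or damaged proteins and help them refold or be degraded. In the HSP70 cycle, J-domain proteins such as Dnajb1 and Dnaja1 hand a client to an HSP70 and stimulate its ATPase, and Hsph1, an HSP110, exchanges the nucleotide so that the client is released. HSP90 takes up clients such as kinases and steroid receptors after HSP70, Hspd1 folds proteins inside mitochondria, and the small proteins Hspb1 and Hspb7 bind clients without ATP. In stressed cells the inducible genes of this group are switched on by the transcription factor Hsf1, and in heart muscle several of the proteins associate with the contractile filaments.

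Probes of the same gene gave different values below for Hspa8 and Hspb7, and Hsph1 and Hspa1l were called from 1 probe each. The 60-base probes of these genes are shown as given for the array, 5′ to 3′. Capitals mark the longest run of at least 16 bases that another probe of the array, listed under another name, also holds. The positions are those of the files, on rat build rn3, plus strand. The 4 Hspa8 probes lie, from 5′ to 3′ along the gene, at chr8:43794042-43794217, chr8:43794585-43794656, chr8:43795579-43795638 and chr8:43795980-43796293. The 2 Hspb7 probes lie at chr5:160322899-160322958 and chr5:160324324-160324383, and the Hsph1 probe at chr12:5809732-5809791. The files place the Hspa1l probe nowhere in the genome. Whether a probe lies in coding sequence or in an untranslated region was not analysed here.
Hspa8 probe 1: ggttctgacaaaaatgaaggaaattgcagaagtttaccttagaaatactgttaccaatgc
Hspa8 probe 2: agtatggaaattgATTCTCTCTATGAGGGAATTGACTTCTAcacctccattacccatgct
Hspa8 probe 3: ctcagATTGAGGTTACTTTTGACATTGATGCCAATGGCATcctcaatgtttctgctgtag
Hspa8 probe 4: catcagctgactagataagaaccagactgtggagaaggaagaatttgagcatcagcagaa
Hspb7 probe 1: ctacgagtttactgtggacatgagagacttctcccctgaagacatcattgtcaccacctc
Hspb7 probe 2: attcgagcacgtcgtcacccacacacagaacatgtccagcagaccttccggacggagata
Hsph1 probe: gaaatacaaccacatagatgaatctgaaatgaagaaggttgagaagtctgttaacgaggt
Hspa1l probe: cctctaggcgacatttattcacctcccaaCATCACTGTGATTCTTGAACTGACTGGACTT
Hspa8 probe 2 shares 28 bases with a probe named LOC310385, and Hspa8 probe 3 shares 35 bases with a probe of a predicted transcript. The Hspa1l probe shares 31 bases with a probe listed without a gene symbol. Whether that probe stands for Hspa1l itself or for another gene was not analysed. Signal on these 3 probes may come in part from other transcripts, and their values are uncertain to that extent.

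The arrays differed in a 5′ to 3′ property and in the slide they lay on. Over 2356 other transcripts that have both a 5′ and a 3′ probe, the 5′ minus 3′ difference was computed for each array relative to the untreated arrays. It was below -0.5 on 6 arrays, from -0.83 to -0.50, and between -0.32 and 0.17 on the other 14. The 6 arrays were array 2 of concentration 1/25 at 6 h, array 2 of concentration 1 at 24 h, and arrays 1 and 3 of both concentrations 1/5 and 1/25 at 24 h. Between 64.1% and 82.5% of probes were well above background on these 6 arrays and between 81.4% and 88.2% on the other 14, and the 75th percentile of signal ran from 3165 to 21937 over all 20. The 20 arrays lay on 6 slides, both untreated arrays lay with 2 arrays of concentration 1 at 6 h, and arrays of 6 h and 24 h shared only 1 slide, at different concentrations. Outside that slide, time and slide cannot be told apart.

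Values below are log2 signal minus the 75th percentile of the array, so 0 stands for that percentile and 1 unit is a doubling of signal; a change is a difference of such values between groups, with its standard error (SE) from limma. A gene or probe was called when its p-value, adjusted by the Benjamini-Hochberg method over everything tested, was below 0.05. A gene with several probes is represented by its brightest one.

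Of the constitutive and inducible HSP70 genes, Hspa1l alone passed the test in a comparison with untreated cultures. Hspa1l is a member of the HSP70 family known for its expression in the testis. Its values were -3.30 and -3.65 in the untreated arrays. At 6 h they were -4.31, -4.53 and -4.12 at concentration 1, -4.33, -5.15 and -4.28 at 1/5, and -4.39, -3.72 and -4.59 at 1/25. At 24 h they were -4.99, -4.44 and -4.51 at concentration 1, -5.04, -6.66 and -6.66 at 1/5, and -4.32, -3.99 and -4.39 at 1/25. All 18 treated arrays lay below both untreated arrays, as did those of 79 of 30267 genes (0.261%) with a value on every array. The 2 lowest values, both of concentration 1/5 at 24 h, were not well above background.

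The mean of Hspa1l was -3.48 ± 0.25 (SD, n = 2) in untreated cultures and -6.12 ± 0.94 (SD, n = 3) at concentration 1/5 for 24 h. The change was -2.65 (SE 0.46, adjusted p = 0.0245), and it was the only one of the 10 genes called there, where 0.184% of all genes tested were called. The other changes from untreated were -0.85, -1.11 and -0.76 at 6 h and -1.17 and -0.76 at 24 h for concentrations 1 and 1/25, and limma called none of them. Against the untreated arrays on its own slide, concentration 1 at 6 h differed by -0.95 (adjusted p = 0.572). The call at 1/5 was lost without either untreated array (-2.47, adjusted p = 0.371; -2.82, adjusted p = 0.224), and with median scaling, quantile normalization, normexp background, array weights, the deposited table, the 5′ minus 3′ covariate described below, or only the groups compared. The probe that shares 31 bases read -3.62 and -4.03 in the untreated arrays and -7.08 to -3.80 in the treated ones, of which 16 of 18 lay below both untreated arrays.

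Hspa8 encodes the constitutive HSC70 that serves most routine folding in the cytosol. Its 4 probes gave different pictures of the same samples. Probe 1, at the 5′ side, read -0.25 and -0.43 in the untreated arrays. It read -0.30, -0.18 and 0.26 at concentration 1 for 6 h, -1.56, -2.73 and -0.25 at 1/5, and 0.70, -2.31 and -0.97 at 1/25. At 24 h it read -1.76, -6.87 and -1.23 at concentration 1, -7.68, -1.52 and -3.93 at 1/5, and -7.79, -0.61 and -6.42 at 1/25. The 5 lowest of these 20 values fell on 5 of the 6 arrays with the low 5′ minus 3′ difference, and 4 of them were not well above background.

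Probe 4 of Hspa8, at the 3′ side and the brightest, showed no such loss. It read 1.67 and 1.96 in the untreated arrays, 1.42 to 2.08 over the 9 arrays of 6 h and 0.82 to 2.69 over the 9 arrays of 24 h, where the highest were 2.47, 2.69 and 2.42 on 3 of the same 6 arrays. It was saturated on 5 arrays, 2 of them among the 6. Relative to the untreated arrays, probe 1 minus probe 4, whose centres lie 2007 bases apart, had a median of -6.71 on the 6 arrays (-8.32 to -2.23) and of -0.23 on the other 14 (-2.23 to 1.06). Between 24 h and 6 h over the 3 concentrations, probe 1 changed by -3.38 (SE 1.01, adjusted p = 0.0285) and probe 2 by -2.40 (SE 0.69, adjusted p = 0.0256). Probes 3 and 4 differed by -0.09 and 0.22 and were not called. Without the 6 arrays the differences of probes 1 and 2 were -0.63 and -0.33, neither called.

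Hspa1a, the stress-inducible HSP70, was not called in any of the 14 tests. Its 3′ probe read -1.38 and -1.50 in the untreated arrays, -2.30 to -1.03 at 6 h, and -2.90, -2.57 and -2.45 at concentration 1 for 24 h. At 24 h it read -2.24, -2.13 and 1.47 at 1/5 and -1.62, -2.20 and -2.25 at 1/25, so 1 array at 1/5 stood far above the others of its group. The difference from untreated was -1.20 at concentration 1 for 24 h, 0.48 at 1/5 and -0.58 at 1/25. The 5′ probe read lower on each of the 6 arrays (-4.56 to -2.76) than on any of the other 14 (-2.42 to -1.20). Of all probes, 8.04% were lower in this way. Without array 3 of concentration 1/5 at 24 h, the 3′ probe changed by -0.68 between 6 h and 24 h over the 3 concentrations (SE 0.18, adjusted p = 0.0184). In that fit 26.3% of all genes were called. Hspa1a has a near-identical neighbour, Hspa1b, and the deposited signal cannot be divided between them with certainty; a probe named for Hspa1b was not well above background on 18 of 20 arrays.

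**Figure D1:**
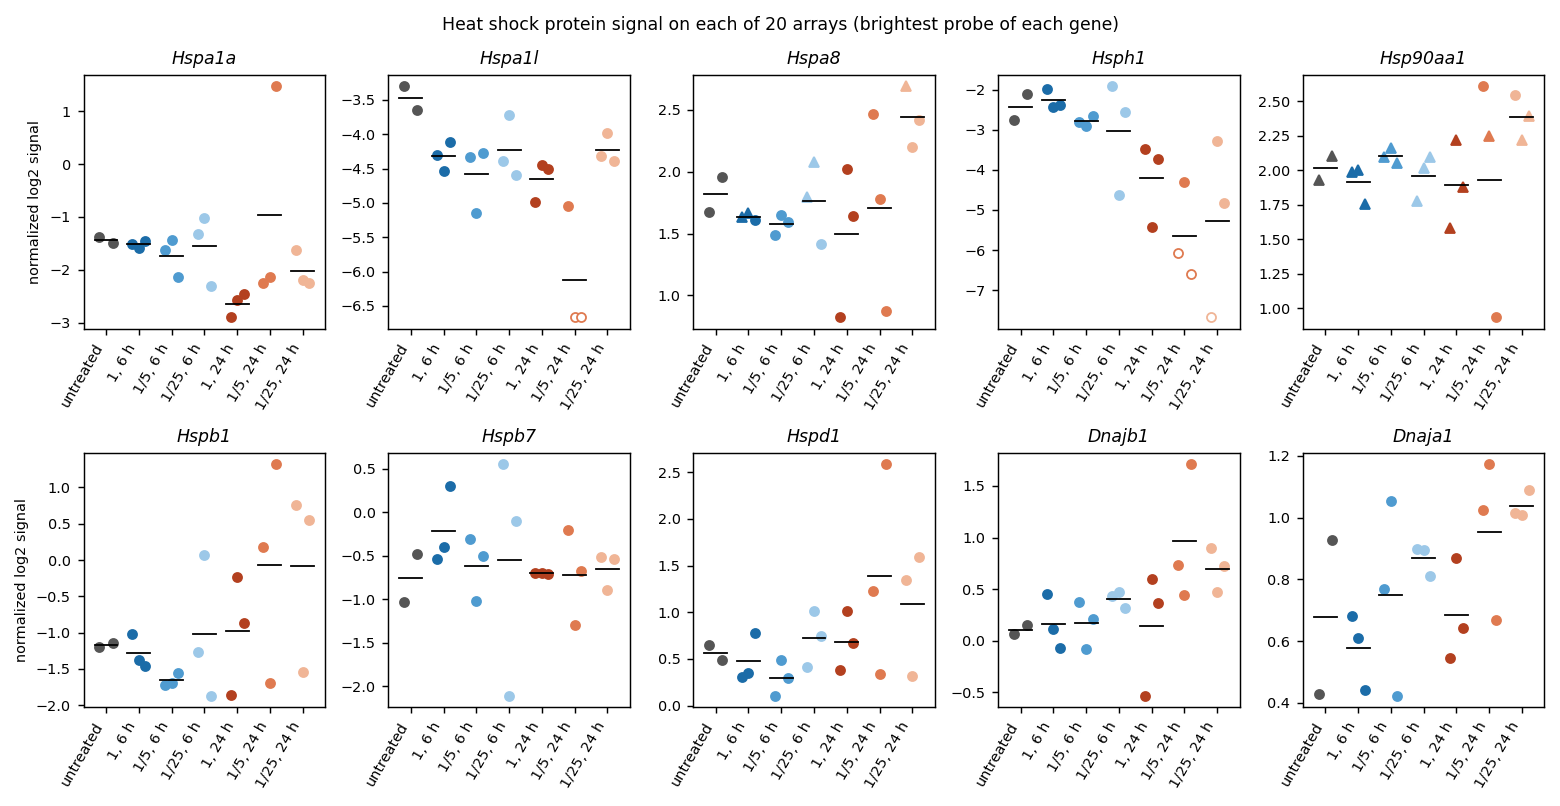
Normalized log2 signal (vertical axes, array 75th percentile at 0) of the probe that stands for each of the 10 genes on each of the 20 arrays, by group along the horizontal axes; bars are group means, hollow circles are spots not well above background and triangles are saturated spots. Hsph1 is lower on the 24 h arrays than on all but 1 of the 6 h arrays, Hspa1l lies lower in all 18 treated arrays than in the 2 untreated ones, and Hsp90aa1 is saturated on 17 arrays.

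Hsph1 was the only gene of the 10 that was called between 24 h and 6 h over the 3 concentrations. Its single probe read -2.76 and -2.12 in the untreated arrays. At 6 h it read -2.00, -2.43 and -2.38 at concentration 1, -2.81, -2.92 and -2.65 at 1/5, and -1.91, -4.63 and -2.57 at 1/25. At 24 h it read -3.47, -5.42 and -3.72 at concentration 1, -6.08, -4.30 and -6.61 at 1/5, and -7.68, -3.29 and -4.84 at 1/25. Every 24 h array lay below every untreated array, and below every 6 h array except array 2 of concentration 1/25. How many of all genes had this order was not counted. The values -6.08, -6.61 and -7.68 came from spots not well above background.

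Group means of Hsph1 were -2.44 ± 0.45 (SD, n = 2) untreated, -2.27 ± 0.23, -2.79 ± 0.14 and -3.04 ± 1.42 at 6 h from concentration 1 to 1/25, and -4.20 ± 1.06, -5.66 ± 1.21 and -5.27 ± 2.22 at 24 h (SD, n = 3 each). Hsph1 fell by 2.34 between 6 h and 24 h over the 3 concentrations (limma SE 0.52, adjusted p = 0.011). This is 1 of 10 members called, and 21% of all genes were called in that comparison, so the share is no higher among the members. The differences from untreated at 24 h were -1.77, -3.22 and -2.83 for concentrations 1, 1/5 and 1/25, with adjusted p of 0.999, 0.129 and 0.35. On the only slide with both times, the 1/25 array of 6 h read -2.57 and the concentration 1 arrays of 24 h read -3.47, -5.42 and -3.72.

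The Hsph1 probe was also one of the 2 member probes that read lower on each of the 6 arrays with the low 5′ minus 3′ difference (-7.68 to -4.63) than on each of the other 14 (-4.30 to -1.91). Of all probes, 8.04% did so. On the arrays that remain, the 4 of 24 h read -4.30 to -3.29, below the 8 of 6 h (-2.92 to -1.91) and both untreated arrays; of all genes, 2.17% were lower in this way. Without the 6 arrays Hsph1 fell by 1.29 from 6 h to 24 h (SE 0.19, adjusted p = 0.0059), still as 1 of 10 members, where 8.7% of all genes were called. With the 5′ minus 3′ difference of each array as a covariate the change was -0.28 (SE 0.31, adjusted p = 1.00), no member was called, and 0.17% of all genes were. Both fits were chosen after seeing the data. Of the 6 arrays, 5 were of 24 h and 1 was of 6 h, so the covariate and time cannot be fully told apart.

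Hsp90aa1, the stress-inducible cytosolic HSP90, had 4 probes, and none was called in any comparison at the probe or the gene level. The brightest was saturated on 17 of 20 arrays, including every array of the untreated, all 6 h and the concentration 1 at 24 h groups, so no fold is given between those groups. The 5′ probe read 1.04 and 1.74 in the untreated arrays and 1.13 to 2.46 in the treated ones. The 3′ probe read 0.05 and 0.28 untreated, -0.04 to 0.59 at 6 h and -2.80 to 0.11 at 24 h. Thus 8 of its 9 arrays of 24 h lay below every array of 6 h, and how common such a split is in the series was not counted. The 5′ minus 3′ difference of these probes, 2853 bases apart, relative to the untreated arrays, had a median of 1.28 on the 6 arrays (0.06 to 3.40) and of 0.23 on the other 14 (-0.36 to 0.81), with overlap. The 5′ probe was saturated on 4 arrays, 3 of them among the 6, so these differences are limited by saturation.

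Hspb1, the small heat shock protein HSP27, binds unfolded clients and actin filaments. Its probe read -1.20 and -1.14 in the untreated arrays. At 6 h it read -1.02, -1.38 and -1.46 at concentration 1, -1.72, -1.69 and -1.55 at 1/5, and -1.27, 0.07 and -1.87 at 1/25. At 24 h it read -1.86, -0.23 and -0.86 at concentration 1, 0.18, -1.70 and 1.32 at 1/5, and 0.76, -1.54 and 0.55 at 1/25. The 6 highest values were those of the 6 arrays with the low 5′ minus 3′ difference (-0.23 to 1.32), while the other 14 ran from -1.87 to -0.86. Of all probes, 3.77% were higher on all 6 arrays in this way. The 24 h minus 6 h change of Hspb1 was 0.95 (SE 0.41, adjusted p = 0.0952), not called, and without the 6 arrays it was -0.03. It was called without array 2 of concentration 1/5 at 24 h (1.22, adjusted p = 0.0157), as were 44.2% of all genes. Without array 2 of 1/25 at 24 h it was called (1.19, adjusted p = 0.0242), as were 34.0% of all genes. Without array 2 of 1/25 at 6 h it was called (1.13, adjusted p = 0.0468), as were 29.0% of all genes. It was also called with median scaling (1.34, adjusted p = 0.042), with the deposited table (1.34, adjusted p = 0.0414) and with slide as a random block (0.92, adjusted p = 0.0286), where 36.1%, 36.4% and 48.7% of all genes were called.

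Hspb7, a small heat shock protein of heart and skeletal muscle that associates with filaments, was lower at 24 h at its 5′ probe. That probe read -5.02 and -2.29 in the untreated arrays. At 6 h it read -2.89, -2.62 and -1.07 at concentration 1, -1.99, -4.77 and -3.96 at 1/5, and -0.76, -7.89 and -3.14 at 1/25. At 24 h it read -5.30, -7.08 and -7.04 at concentration 1, -6.96, -6.36 and -6.63 at 1/5, and -7.34, -5.82 and -5.69 at 1/25. Every 24 h array was below both untreated arrays and below 8 of the 9 arrays of 6 h. The share of all probes with this order was not counted, and 22.7% of all probes were called between the times. At 1/5 for 24 h no array was well above background, which puts the signal at least 3.63-fold lower than in untreated cultures and at least 3.83-fold lower than at 1/5 for 6 h. The first bound rests on 1 untreated array: it is 1.41-fold without array 2 and 9.36-fold without array 1. The second is 2.22-fold to 5.79-fold without 1 array of the 6 h group. These bounds set the bright group's mean against the dim group's mean of, per array, the higher of the lowest signal well above background and the probe's own.

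The 24 h minus 6 h change of the Hspb7 5′ probe was -3.24 (SE 0.74, adjusted p = 0.0113) with all arrays and -3.54 (SE 0.76, adjusted p = 0.0218) without the 6 arrays. With the covariate it was -1.15 (adjusted p = 0.87). The 3′ probe, 1425 bases away and the brighter, read -1.03 and -0.48 untreated, -2.10 to 0.55 at 6 h and -1.30 to -0.20 at 24 h. Its change was -0.23 (SE 0.29, adjusted p = 0.558), so with all arrays only the 5′ probe of this gene was called. Without the 6 arrays the 3′ probe lay on the same side of 0 as the 5′ probe, at -0.76 (SE 0.23). A difference between the probes was not tested.

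Hspd1, the mitochondrial chaperonin HSP60, had 4 probes, of which none was called with the settings used throughout. The brightest read 0.65 and 0.48 untreated, 0.11 to 1.02 at 6 h, 0.38, 1.01 and 0.67 at concentration 1 for 24 h, 1.23, 0.34 and 2.59 at 1/5, and 1.35, 0.32 and 1.59 at 1/25. As for Hspb1, the 6 arrays with the low 5′ minus 3′ difference held the 6 highest values (1.01 to 2.59, against 0.11 to 0.77). Of all probes, 3.77% were higher on all 6 arrays in this way. The other 3 Hspd1 probes overlapped between the 6 arrays and the rest. Their medians on the 6 arrays differed from those on the rest by -0.22, -0.19 and -1.28, from the 5′ to the 3′ side. The 24 h minus 6 h difference was 0.55 (SE 0.26, adjusted p = 0.124) and, without the 6 arrays, -0.06. The other 3 Hspd1 probes differed by -0.25, -0.33 and -0.72, and so lay on the other side of 0 from the brightest. These 3 probes share 28, 27 and 26 bases with probes of other names, and 2 of them share 30 bases with each other, so their values are uncertain. Without array 2 of concentration 1/5 at 24 h the brightest probe was called, at 0.73 (adjusted p = 0.0219), as were 44.2% of all genes. It was also called with median scaling (0.95, adjusted p = 0.0382), the deposited table (0.95, adjusted p = 0.0375) and slide as a random block (0.55, adjusted p = 0.0364). In these settings 36.1%, 36.4% and 48.7% of all genes were called.

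Of the 2 J-domain genes, Dnajb1 is the stress-inducible HSP40 and Dnaja1 a constitutive partner of HSC70. The 5′ probe of Dnajb1 read -1.53 and -1.97 in the untreated arrays and -2.21, -1.74 and -1.43 at concentration 1 for 6 h. It read -2.69, -3.79 and -1.35 at 1/5 and -1.39, -3.32 and -1.74 at 1/25 for 6 h. At 24 h it read -2.73, -4.95 and -2.39 at concentration 1, -4.39, -2.29 and -5.84 at 1/5, and -5.44, -2.44 and -6.51 at 1/25. All 9 arrays of 24 h were below both untreated arrays, and the lowest were again among the 6. How many of all probes had such an order was not counted.

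The 3′ probe of Dnajb1, 595 bases away, read 0.06 and 0.15 untreated, -0.08 to 0.47 at 6 h and -0.53 to 1.71 at 24 h. Its 24 h minus 6 h difference was 0.35 (adjusted p = 0.185), while the 5′ probe changed by -1.92 (SE 0.59, adjusted p = 0.0309). The 5′ minus 3′ difference of Dnajb1 had a median of -4.09 on the 6 arrays (-5.70 to -1.93) and of -0.31 on the other 14 (-1.85 to 0.50), with a narrow gap and no overlap. The 6 arrays are those lowest in this difference over other transcripts, and the share of transcripts without overlap was not counted. Without the 6 arrays the 5′ probe differed by -0.44 between the times and was not called. The single probe of Dnaja1 read 0.43 and 0.93 untreated, 0.42 to 1.05 at 6 h and 0.54 to 1.17 at 24 h, and its differences from untreated lay between -0.10 and 0.36.

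**Figure D2:**
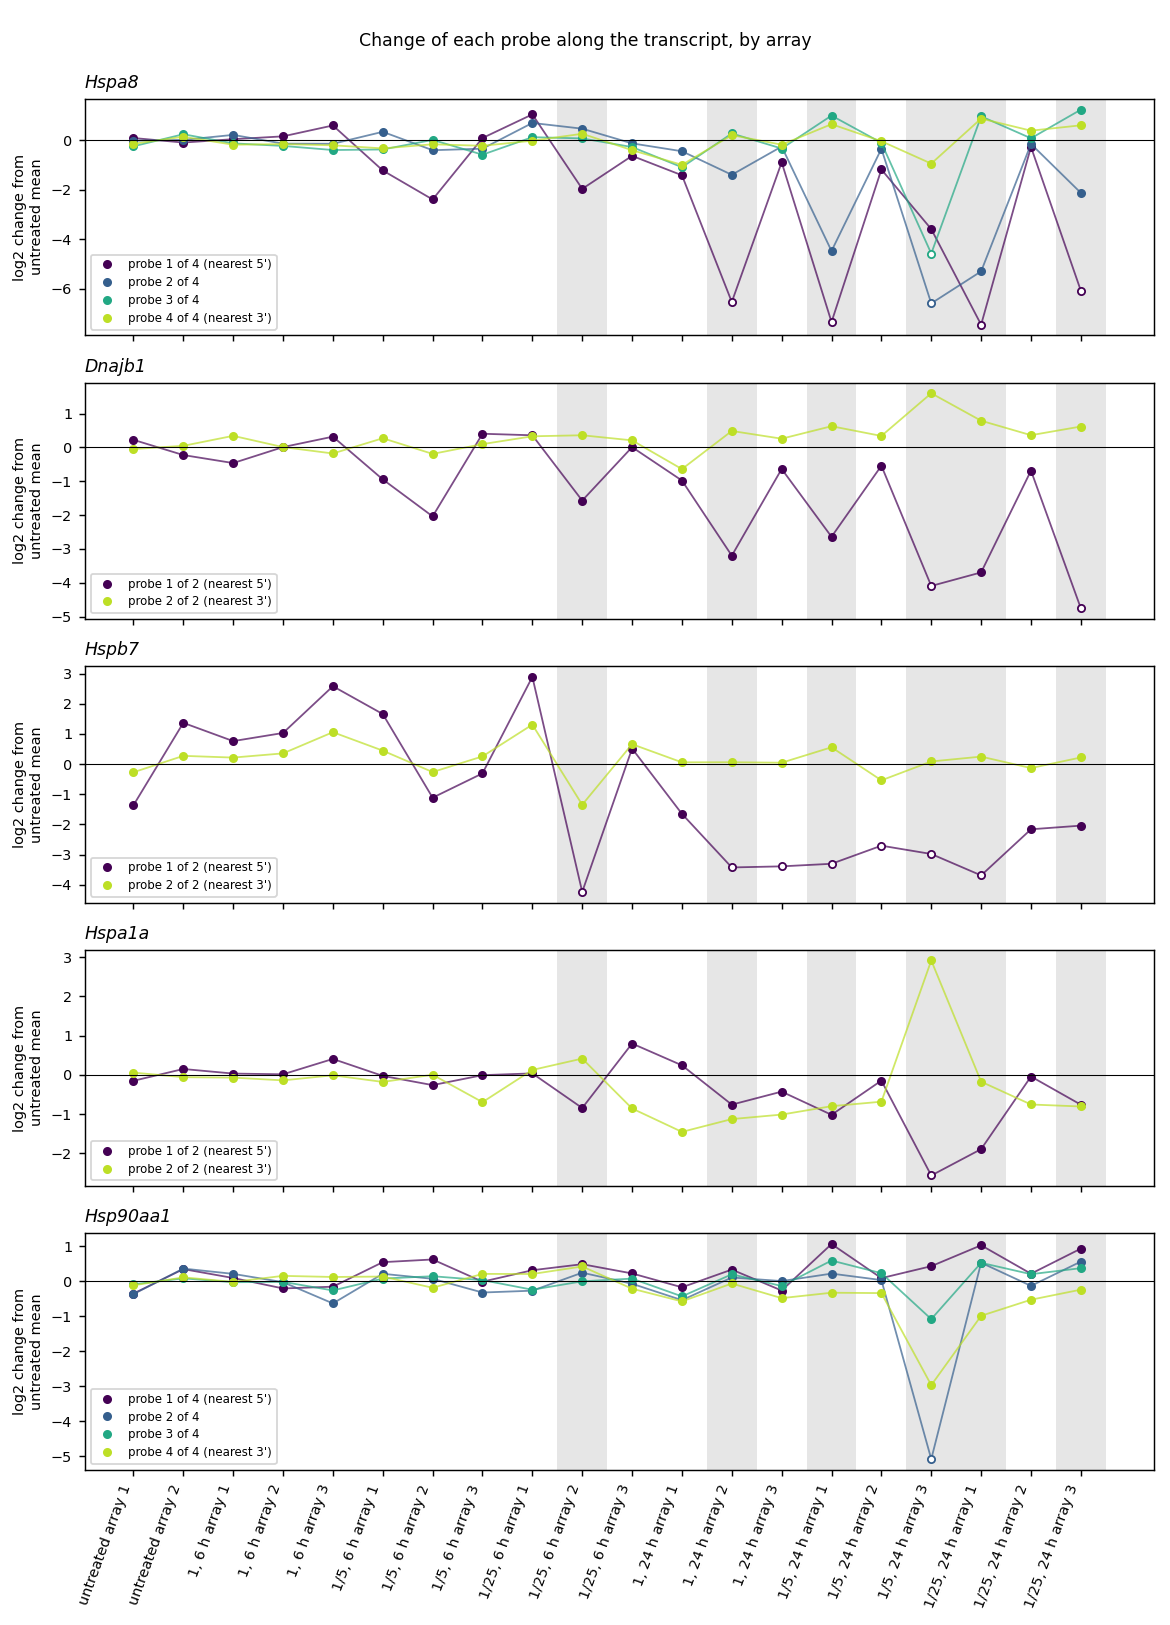
Change of each probe from its untreated mean (log2, vertical axes) on each of the 20 arrays (horizontal axes) for Hspa8, Dnajb1, Hspb7, Hspa1a and Hsp90aa1. Hspd1, which also had several probes, is not shown. Lines join the arrays of a probe only to guide the eye, and hollow points are not well above background. Grey bands mark the 6 arrays with the low 5′ minus 3′ difference. The 5′ probes of Hspa8 and Dnajb1 have their lowest points inside the bands, and the Hspb7 5′ probe is low on the other 24 h arrays as well.

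Read probe by probe, 5 of the 22 member probes were called between 24 h and 6 h over the 3 concentrations, where 22.7% of all probes were called. All 5 were lower at 24 h: Hspa8 probes 1 and 2 and the 5′ probes of Dnajb1 and Hspb7, together with Hsph1. The share of member probes called was close to that of all probes. The 4 probes that belong to genes with several probes were not the ones chosen to stand for their gene, because a probe nearer the 3′ end was brighter. With the mean of all kept probes per gene, 4 genes were called lower, namely Hspa1a, Hspa8, Hspb7 and Hsph1, and the value of Hspa8 went from 0.22 to -1.41. In that setting 22.3% of all genes were called.

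**Figure D3:**
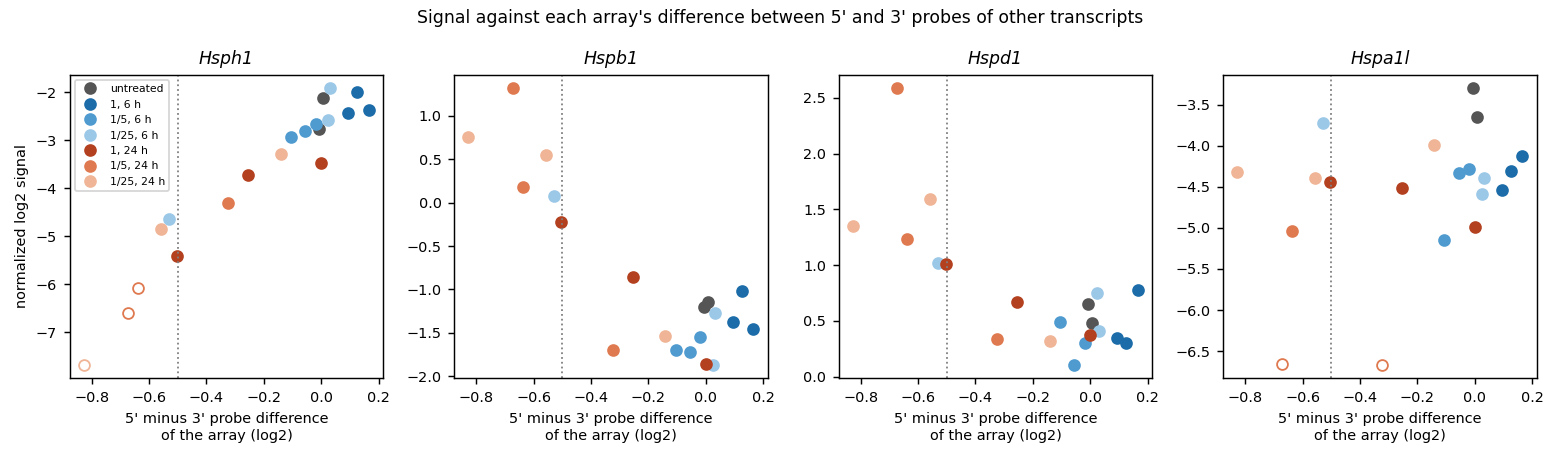
Normalized log2 signal of Hsph1, Hspb1, Hspd1 and Hspa1l (vertical axes) against the 5′ minus 3′ difference of 2356 other transcripts on the same array (horizontal axes, log2), 1 point for each of 20 arrays, coloured by group; hollow points are not well above background and the dotted line is at -0.5. Hsph1 is lowest on the 6 arrays left of the line, where Hspb1 and Hspd1 are highest, and the 2 lowest Hspa1l arrays lie on either side of it.

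At 6 h no heat shock gene was called against untreated cultures. At concentration 1, 0.00656% of all genes were called, and at 1/5 and 1/25 0% were; at an unadjusted p below 0.05, limma counted 453, 332 and 355 genes and 0, 1 and 0 members, the 1 being Hspa1l. The median difference of the 10 members was -0.10, -0.25 and 0.05 for concentrations 1, 1/5 and 1/25, beside 0.01, 0.02 and -0.07 for all genes. For the inducible genes Hspa1a, Dnajb1, Hspb1 and Hsph1 the 6 h differences ran from -0.60 to 0.30. A rise of these genes after 6 h of diclofenac was thus not detected at this replication.

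At 24 h, of the 10 genes, 1 was called at 1/5 (Hspa1l, above) and none at concentration 1 or 1/25, where 0.00328% of all genes were called in each. At an unadjusted p below 0.05 there were 1, 3 and 1 members for concentrations 1, 1/5 and 1/25, among 1391, 9275 and 4080 genes. The median difference of the members was -0.06, 0.15 and 0.36, beside -0.10, -0.12 and -0.13 for all genes. Hspb1 differed by 0.19, 1.11 and 1.10 and Hspd1 by 0.12, 0.82 and 0.52, while Hsph1 and Hspa1l were below 0 at all concentrations. Without array 2 of concentration 1/5 at 24 h, Hspa1l, Hsph1, Hspd1 (1.34, adjusted p = 0.0369) and Dnajb1 (1.11, adjusted p = 0.0428) were called at 1/5, and the genes called went from 56 to 10771 (35.3%).

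The change between 6 h and 24 h at a single concentration was called for no member. It was called for 0.233% of all genes at concentration 1, 0.0984% at 1/5 and 0% at 1/25. At an unadjusted p below 0.05, limma counted 1, 5 and 1 members among 4199, 10071 and 3022 genes for concentrations 1, 1/5 and 1/25. Hsph1 differed by -1.94 at concentration 1 (adjusted p = 0.359). Without array 2 of concentration 1/5 at 24 h, 5 members were called at 1/5: Hspa1l at -1.27, Hsph1 at -3.55, Hspb1 at 2.40, Hspd1 at 1.61 and Dnajb1 at 1.05, where 11700 genes (38.4%) were called. Without array 1 of that group, Hspa1l was called at -2.08, beside 33 genes in all (0.108%).

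Over the 3 concentrations 6419 genes were called, 2346 higher and 4073 lower at 24 h. That split depended on the scaling: 8488 were higher and 2529 lower with median scaling, 1462 and 6512 with the percentile taken over probes well above background on all arrays, and 3978 and 2633 with quantile normalization. Median scaling raised the median change of all genes by 0.39 and the second setting lowered it by 0.25. Of the members, 5 were called with median scaling (36.1% of all genes), 2 with the second setting (26.1%) and 1 with quantile normalization (21.7%). The 5 were Hsph1, Hspb1, Hspd1, Dnajb1 (0.75, adjusted p = 0.0405) and Dnaja1 (0.55, adjusted p = 0.037), and the 2 were Hsph1 and Hspa1l (-0.87, adjusted p = 0.0241). The median change of the 10 members was 0.12, beside -0.09 for all genes. Hsph1 was lower in all 4 scalings. The count of genes was 2322 without array 2 of concentration 1 at 24 h and 13476 without array 2 of 1/5 at 24 h. Hspa1l was called as well without array 1 of 1/5 at 24 h (-0.80, adjusted p = 0.0212), as were 14.9% of all genes.

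**Figure D4:**
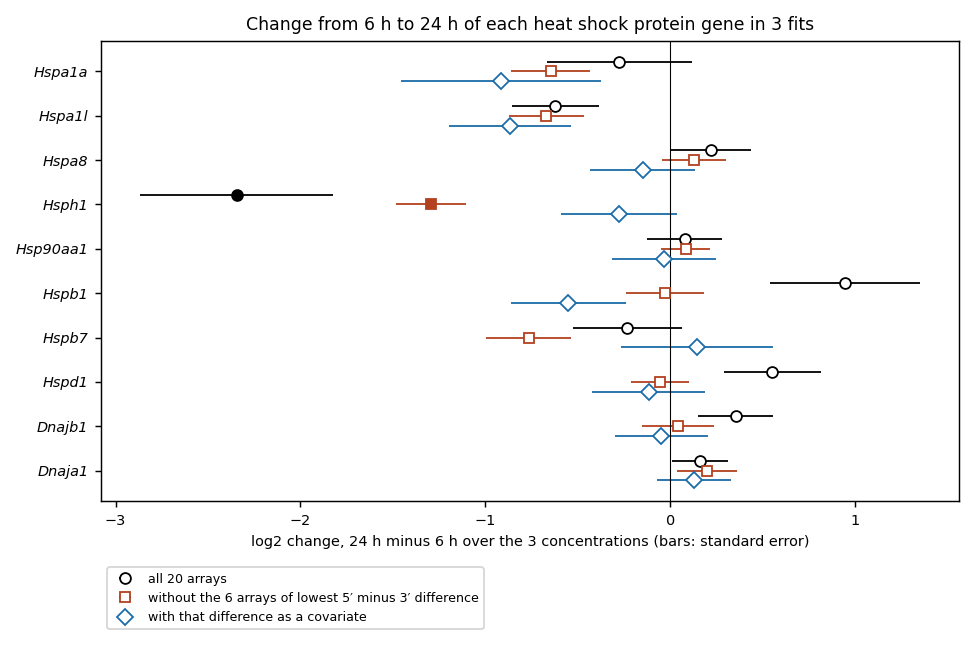
Change between 6 h and 24 h over the 3 concentrations (log2, 24 h minus 6 h, with SE bars) of the brightest probe of each gene in 3 fits: all arrays (circles), without the 6 arrays with the low 5′ minus 3′ difference (squares), and with that difference as a covariate (diamonds); filled markers have an adjusted p below 0.05. Hsph1 is filled in the first and second fits, and no other marker is filled.

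Concentration was called for no member. Between concentrations 1 and 1/25, 0.0197% of all genes were called at 6 h and 0.00328% at 24 h, and for the interaction of that difference with time 0%. At an unadjusted p below 0.05 limma counted 1460, 1526 and 782 genes and 0, 1 and 0 members, the 1 being Hspa8. At 24 h the difference of concentration 1 from 1/25 was -0.94 for Hspa8, -0.91 for Hspb1, -0.62 for Hspa1a and 1.06 for Hsph1. A test of any difference among the 7 groups called 0.692% of all genes and none of the 10 members, with the smallest adjusted p at 0.0654 for Hspa1l and 0.148 for Hsph1. At an unadjusted p below 0.05 it counted 6547 genes and these 2 members.

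In 4 lists, other genes of the chaperone network were measured beside the members, and no list held a called gene in a comparison other than 24 h against 6 h over the 3 concentrations. Of 18 other chaperones, all measured, 5 were called higher and 0 lower at 24 h, where 21% of all genes were called, 2346 higher and 4073 lower. By sign alone 13 lay above 0 and 5 below. Hspa5, the HSP70 of the endoplasmic reticulum, rose by 1.03 (SE 0.32, adjusted p = 0.0343). Hspb6, a small heat shock protein of muscle, rose by 0.87 (adjusted p = 0.037), and Hsp90ab1, the constitutive HSP90, by 0.72 (adjusted p = 0.0378). The median of the list was 0.52, beside -0.09 for all genes. Its count was 11 higher and 0 lower with median scaling, where 36.1% of all genes were called (8488 higher, 2529 lower). With the percentile over probes well above background on all arrays it was 1 and 1, where 26.1% were called (1462 higher, 6512 lower). Hspa5 (adjusted p = 0.0575) and Hsp90ab1 (adjusted p = 0.0536) were not called there. With quantile normalization the count was 4 and 1, where 21.7% of all genes were called (3978 higher, 2633 lower).

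Of 18 other J-domain genes, 13 were measured. In the same comparison, where 21% of all genes were called, 0 were called higher and 2 lower. These were Dnajc7, lower by 1.69 (adjusted p = 0.016), and Dnajb6, lower by 1.06 (adjusted p = 0.0281). By sign alone 2 of the list lay above 0 and 11 below, with a list median of -0.65. Of 20 co-chaperones and regulators, 17 were measured, with 1 called higher and 4 lower and a median of 0.24. By sign alone 9 lay above 0 and 8 below. Among them Hsf2, a heat shock transcription factor, rose by 1.15 (adjusted p = 0.0114). Cdc37, which brings kinases to HSP90, fell by 3.07 (adjusted p = 0.0139), and Stip1, which links HSP70 to HSP90, fell by 1.62 (adjusted p = 0.0204). Of the 8 subunits of the cytosolic chaperonin TRiC, 0 were called higher and 2 lower. These were Cct6a, lower by 1.95 (adjusted p = 0.0138), and Cct7, lower by 1.74 (adjusted p = 0.0192). By sign alone 4 lay above 0 and 4 below, with a median of -0.46. With median scaling, where 36.1% of all genes were called, the J-domain and TRiC lists each held 2 called higher and 2 lower. The co-chaperones then held 8 higher and 4 lower. With the percentile over probes well above background on all arrays, 26.1% of all genes were called. The J-domain list then held 0 higher and 6 lower, the co-chaperones 1 and 4, and TRiC 0 and 2. Without the 6 arrays, of these named genes only Cct6a was called (-1.06, adjusted p = 0.0068), and with the covariate no gene of any list was.

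Markers were read to see what the cultures held. All 11 cardiomyocyte markers that passed the filter, of 12 listed, were well above background on all 20 arrays, as were 6 of 8 fibroblast, 2 of 6 endothelial, 2 of 4 smooth muscle, 3 of 5 leukocyte and 1 of 4 erythroid markers. Markers of muscle and of other cells of the heart were thus both present. The summed cardiomyocyte level (log2) was 4.21 and 4.46 untreated, 4.18 to 4.58 at 6 h and 3.84 to 6.66 at 24 h. The smooth muscle level was 1.80 and 2.05 untreated, 1.60 to 2.15 at 6 h and -0.94 to 2.00 at 24 h. At 24 h the fibroblast level ran from 3.82 to 6.61 and the endothelial level from 1.35 to 3.38. On the 6 arrays with the low 5′ minus 3′ difference the cardiomyocyte level was 4.44 to 6.66 and the smooth muscle level -0.94 to 1.94. Between 24 h and 6 h, 2 cardiomyocyte, 2 smooth muscle and 1 erythroid markers were called lower. For endothelial and leukocyte markers 2 each were called higher, and 1 fibroblast marker was called each way. Of all genes, 21% were called in that comparison, 2346 higher and 4073 lower. The median changes over all markers of a type, called or not, were 0.37 for cardiomyocyte, 0.28 for fibroblast and 0.21 for endothelial markers. They were -1.21 for smooth muscle, -0.58 for leukocyte and -0.80 for erythroid markers. The part of the cell makeup in the changes of the heat shock genes was not tested, and in these bulk samples fewer cells of a type and less RNA per cell cannot be told apart.

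The genes with the pattern most like each member over the 20 arrays were found by Pearson's r among 13111 other named genes, as a description, since the arrays share slides and the 5′ to 3′ property. For Hsph1 they were Traf2 (0.98), Or4x11 (0.97) and Eif2s1 (0.97). For Hspa8 they were Cst3 (0.92), Pdlim1 and Pltp (0.90 each), for Dnajb1 Ostf1, Tax1bp1 (0.94 each) and Pln (0.93), and for Hspd1 Ptk2, Phlda1 and Dynll2 (0.95 each). For Hsp90aa1, whose probe was mostly saturated, they were Sdc1, Cggbp1 and Intu (0.99 each). For Hspa1a they were Snrpc (0.93), Cdc42 (0.92) and Necap1 (0.90), and for Dnaja1 Pfdn5, Lsm7 (0.86 each) and Rps20 (0.81). For Hspb1 they were Cybrd1, Sirt5 and Daxx (0.96 each), for Hspa1l Tnfrsf17 (0.82), Slfn4 and Penk (0.81 each), and for Hspb7 Ncan (0.89), Irx3 (0.80) and Inpp5j (0.78). No member was among the 3 nearest genes of another. Hspd1 was the 114th nearest gene of Hspb1 (r = 0.90) and Hsp90aa1 the 30th of Hspa8 (r = 0.83).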

How the data were processed

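Total RNA of 20 samples was labelled with Cy3 and hybridised to 1-colour Agilent rat arrays, and spots were read with Agilent Feature Extraction 9.5.3.1, per the submitters' processing notes. The intensity values used are the processed signals that the authors deposited for each array, background-subtracted by that software per the file headers. The value table that the authors deposited served as an alternative after taking log2. The deposited values of that table are a linear ratio: signal over the array median, over the mean of the untreated arrays, gave 99.85% of them to within 5%, with array medians of 0.859 to 1.85. From 43379 spots per array, outlier spots were left out and replicate spots averaged to 41012 probes; log2 signal minus the 75th percentile of each array was taken, and 35065 probes were kept, for 30503 genes, if all arrays of some group had them well above background. Groups were compared in limma 3.58.1 (R 4.3.3; lmFit and eBayes over all 7 groups) with Benjamini-Hochberg adjustment, after a test on simulated data. The text names the 10 members, up to 3 called genes per list, smallest adjusted p first, and 3 most similar genes per member. The members, lists and tests were chosen with earlier results of these data known. Alternatives in scaling, background, filter, probe choice, blocks, weights and arrays left out were run. The number of arrays limits the precision.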

Additional observations from a re-analysis of the deposited data

How the results depend on the processing

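Between 24 h and 6 h over the 3 concentrations, Hsph1 stayed lower and called in every setting in which it was tested except the 5′ minus 3′ covariate, with a change of -2.67 to -1.94 without 1 array at a time (adjusted p 0.00198 to 0.0297, called in 20 of 20) and of -2.59 to -0.28 in 16 other settings. The cause of the differences between settings was not tested. For that comparison 1 member was called (21% of all genes). It was 5 with median scaling (36.1%) or the deposited table (36.4%) and 2 with the percentile over probes well above background on all arrays (26.1%). It was 4 with the mean of all kept probes (22.3%) or slide as a random block (48.7%) and 3 with array weights (25.6%). The filter well above background on all 20 arrays, which drops Hsph1, and the covariate (0.17%) gave 0. Leaving out 1 array gave 1 to 3, the 3 beside 44.2% of all genes. Hspa8 turned to -1.41 with the mean of all kept probes.
For concentration 1/5 at 24 h against untreated, 1 member was called (0.184% of all genes), against 3 with slide as a random block (34.5%). It was 0 with median scaling, quantile normalization, normexp, the filter on all 20 arrays or array weights. The deposited table, only the groups compared and the covariate also gave 0. Leaving out 1 array gave 0 to 4, the 4 beside 35.3% of all genes. Replicate numbers do not pair the arrays: deviations of 57 same-numbered pairs correlated at a median of -0.04, and those of 114 other pairs at 0.04. With the replicate block it was 0 (Hspa1l -2.61, adjusted p = 0.071), the genes called there went from 56 to 21 and over the 3 concentrations from 6419 to 4684; it changed the call of no other member. For the test of any difference among the 7 groups 0 members were called, against 1 with the percentile over probes well above background on all arrays (1.19% of all genes). It was 4 with slide as a random block (49.2%) and 9 with array weights (86.0%). Leaving out 1 array gave 0 to 2, with up to 14.7% of all genes called. For 24 h minus 6 h at 1/5 the members called were 0, against 5 with slide as a random block, where 14035 genes (46.0%) were called. Without 1 array they were 0 to 5, where up to 11700 genes (38.4%) were called. At concentration 1 they were 0, against 4 with array weights (60.7% of all genes). With only the groups compared 1 was called (8.31%), and 1 without the 6 arrays (4.99%). Array weights also gave 1 member at 6 h for 1/5 (1.76% of all genes), 3 at 24 h for concentration 1 (29.7%) and 9 for 1/25 (66.2%) against untreated. They gave 7 for the times at 1/25 (72.8%), 10 for concentration 1 minus 1/25 at 24 h (90.8%) and 5 for the interaction (51.3%). Fits without 1 untreated array leave 1, which is assumed to vary like the other groups, as are lone arrays without the 6.
The genes called ranged over all settings from 52 (covariate) to 14861 (random slide block) for 24 h minus 6 h over the 3 concentrations, from 0 to 10771 (without array 2 of that group) at 1/5 for 24 h and, with array weights, up to 9074, 20179, 18512, 22217, 27693, 15648 and 26232 for concentrations 1 and 1/25 at 24 h, the times at 1 and 1/25, the concentrations at 24 h, the interaction and the 7 groups. The random block had a correlation of -0.168 between arrays of a slide. For 24 h minus 6 h over the 3 concentrations, its SE was 0.32 for Hspb1, beside 0.41 without the block. For Hspd1 it was 0.21, beside 0.26. The block therefore did not make the test stricter for these genes. A fixed slide block could be fitted only for concentrations 1 and 1/5 at 6 h. The settings without the 6 arrays, with the covariate and with the 3′-most probe were chosen after seeing the data. Over all comparisons and settings, 475 counts of members stayed equal or within 1.5 times and 45 did not. The 475 include counts of 0 that stayed 0. With the settings used throughout, members were called only at 1/5 for 24 h against untreated and between 24 h and 6 h over the 3 concentrations. Saturation limits Hsp90aa1, and spots not well above background limit Hsph1, Hspa1l and the Hspb7 5′ probe.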
